A study of Mus musculus with 15 samples.

Results

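Interstitial cells of Cajal (ICCs) are the pacemaker cells of the gut muscle, and 5 genes of these cells and their neighbours were followed through the growth of the mouse stomach: Kit, Kitl, Ano1, Etv1 and Pdgfra. They were taken by symbol from the deposited tables, in which they are 5 of 44788 symbols, and all 5 passed the limit of a maximal FPKM (fragments per kilobase of transcript, set relative to all mapped fragments of a library) of at least 1, as did 16902 symbols in all. RNA-Seq was carried out on whole stomachs of C57BL/6 mice at 15 timepoints, with 1 transcriptome per timepoint. Phase 1 (Ph1, n = 6) holds the 6 daily timepoints from E12.5 to E17.5, where E stands for embryonic day. E18.5, postnatal days (D) 1, 3 and 5 and weeks (W) 1 and 2 make up Ph2 (n = 6), and W3, W6 and W8 make up Ph3 (n = 3). No treatment or mutation is given for any group, and the labels do not say whether a transcriptome came from 1 animal or a pool. The study's reporting form gives 3 stomachs per replicate from E12.5 to E14.5, 2 from E15.5 to E17.5 and 1 after E18.5. It adds that stomachs up to W2 were not sorted by sex and that later ones were male. Whether this holds for the RNA is not said. If so, pool size and sex changed along with age and cannot be told apart from it.

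KIT is the receptor tyrosine kinase that ICCs need to form and persist, and KIT ligand, the product of Kitl, is its growth factor. ANO1 is the calcium-activated chloride channel that carries the pacemaker current, and ETV1 is an ETS transcription factor that keeps the ICC gene program active downstream of KIT and ERK. PDGFRA is a receptor for platelet-derived growth factors and marks another interstitial cell of the muscle layer, as well as fibroblasts and the early mesenchyme from which ICCs and smooth muscle arise. Mast cells, melanocytes and blood progenitors also carry KIT, so the Kit RNA of a whole organ need not come from ICCs alone.

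The 3 phases are those the study drew from these same transcriptomes. The timepoints of a phase stand in as its replicates, so the spread within a phase includes change with age, and a p-value says how far phases lie apart and nothing about animals of the same age. The 10 highest symbols of a transcriptome took 11.2% of the FPKM sum at E14.5 and 53.2% at W6. Over all tested symbols the median log2(FPKM + 1) difference was -0.22 from Ph1 to Ph2 and -0.43 from Ph2 to Ph3. After median-ratio scaling, which sets the middle gene of each transcriptome to the same level, these medians were 0.01 and -0.02. Differences are therefore given as deposited and after this scaling. Stomach genes identified the tissue: the summed FPKM of 8 stomach markers was between 830 and 3532 in Ph1 and between 212226 and 309181 in Ph3. The methods of the study name liver as the source of the RNA, and at D1 albumin (Alb) was at 461 FPKM, against 0.672 to 65.4 FPKM at the other 14 timepoints. Of 6 liver markers, 3 were called higher in Ph2 and 1, Apoa1, in Ph3, against 13.2% and 3.41% of all tested symbols. Leaving out D1 changed 0 of the calls for the 5 genes.

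The 5 genes lie at separate places of the GRCm38 genome. Kit spans chr5:75574987-75656722 and Pdgfra chr5:75151417-75198211, with 376775 bases between them. Kitl spans chr10:100015787-100100416, Ano1 chr7:144588549-144752045 and Etv1 chr12:38779656-38868215. Each had 1 entry in the tables. The Ano1 locus overlaps an entry that reached at most 0.143 FPKM, and the Pdgfra locus overlaps the microRNA entry Mir7025, which was at 0 in every table.

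The 250 bases before a RefSeq start site (GRCm38.p6) are shown for the 3 genes in which a letter string of the ETS type was found, since one of the genes encodes an ETS factor and Kit and Etv1 were both called lower in Ph3 as deposited. AGGAAG and CGGAAG were searched on both strands, and the matches are in capitals. They share 5 letters but cannot be the same match. AGGAAG was in 29.5% of 32851 windows of this length and CGGAAG in 13.6%. A match is a description of these letters and no evidence of binding.

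Kit, chr5:75574737-75574986, plus strand: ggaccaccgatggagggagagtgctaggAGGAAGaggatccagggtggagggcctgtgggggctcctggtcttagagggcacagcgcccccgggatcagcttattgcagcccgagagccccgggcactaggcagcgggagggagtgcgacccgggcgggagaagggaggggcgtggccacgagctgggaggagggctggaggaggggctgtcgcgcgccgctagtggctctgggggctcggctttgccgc

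Etv1, chr12:38779832-38780081, plus strand: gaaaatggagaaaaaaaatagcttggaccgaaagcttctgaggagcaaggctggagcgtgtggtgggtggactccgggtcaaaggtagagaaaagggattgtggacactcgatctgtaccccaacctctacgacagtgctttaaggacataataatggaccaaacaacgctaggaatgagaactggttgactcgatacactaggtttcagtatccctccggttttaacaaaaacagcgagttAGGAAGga

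Kitl, chr10:100015571-100015820, plus strand: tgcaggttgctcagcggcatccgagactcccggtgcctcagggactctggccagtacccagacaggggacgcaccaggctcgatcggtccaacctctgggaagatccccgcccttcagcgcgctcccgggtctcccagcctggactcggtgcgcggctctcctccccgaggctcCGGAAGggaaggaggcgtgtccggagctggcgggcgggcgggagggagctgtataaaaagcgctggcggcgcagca

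AGGAAG stood 222 bases before the Kit start site and 8 bases before that of Etv1, and CGGAAG stood 76 bases before that of Kitl. Neither string was in the window of Ano1 (chr7:144738574-144738823, minus strand) or of Pdgfra (chr5:75152001-75152250, plus strand), nor in the other window of Etv1. The windows of Kit, Kitl and Ano1 held 70.8%, 69.2% and 72.0% G and C, those of Pdgfra and Etv1 held 54.4% and 46.4%, and the median of all windows was 52.4%.

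As deposited, the receptor and the factor were highest before birth and lowest from W3 on, the channel was highest soon after birth, the ligand had the narrowest range, and Pdgfra started highest of all. Across the 3 phases 4 of the 5 genes differed as deposited at an adjusted p under 0.01 (limma, F test), and Kitl did not (adjusted p = 0.0964). Of all tested symbols 70.8% differed. After median-ratio scaling the F test again called 4 of the 5, against 60.7% of all symbols. Kitl was then called (adjusted p = 0.00157) and Kit was not (adjusted p = 0.0827). The study's one-way test on untransformed FPKM called 3, without Pdgfra (adjusted p = 0.0271) and Kitl (0.104). In the step from Ph1 to Ph2, 1 of 5 genes (Pdgfra) was called lower, where 35.1% of all symbols were, and 0 of 5 higher, where 13.2% were. In the step from Ph2 to Ph3, 3 of 5 genes (Kit, Ano1 and Etv1) were called lower, where 37.4% of all symbols were, and 0 of 5 higher, where 3.41% were. After median-ratio scaling the counts were 2 higher (Kitl and Ano1) and 0 lower in Ph2, and 0 higher and 2 lower (Ano1 and Etv1) in Ph3. Of all symbols 20.4% were then higher and 18.4% lower in Ph2, and 14.9% higher and 10.4% lower in Ph3.

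**Figure D1:**
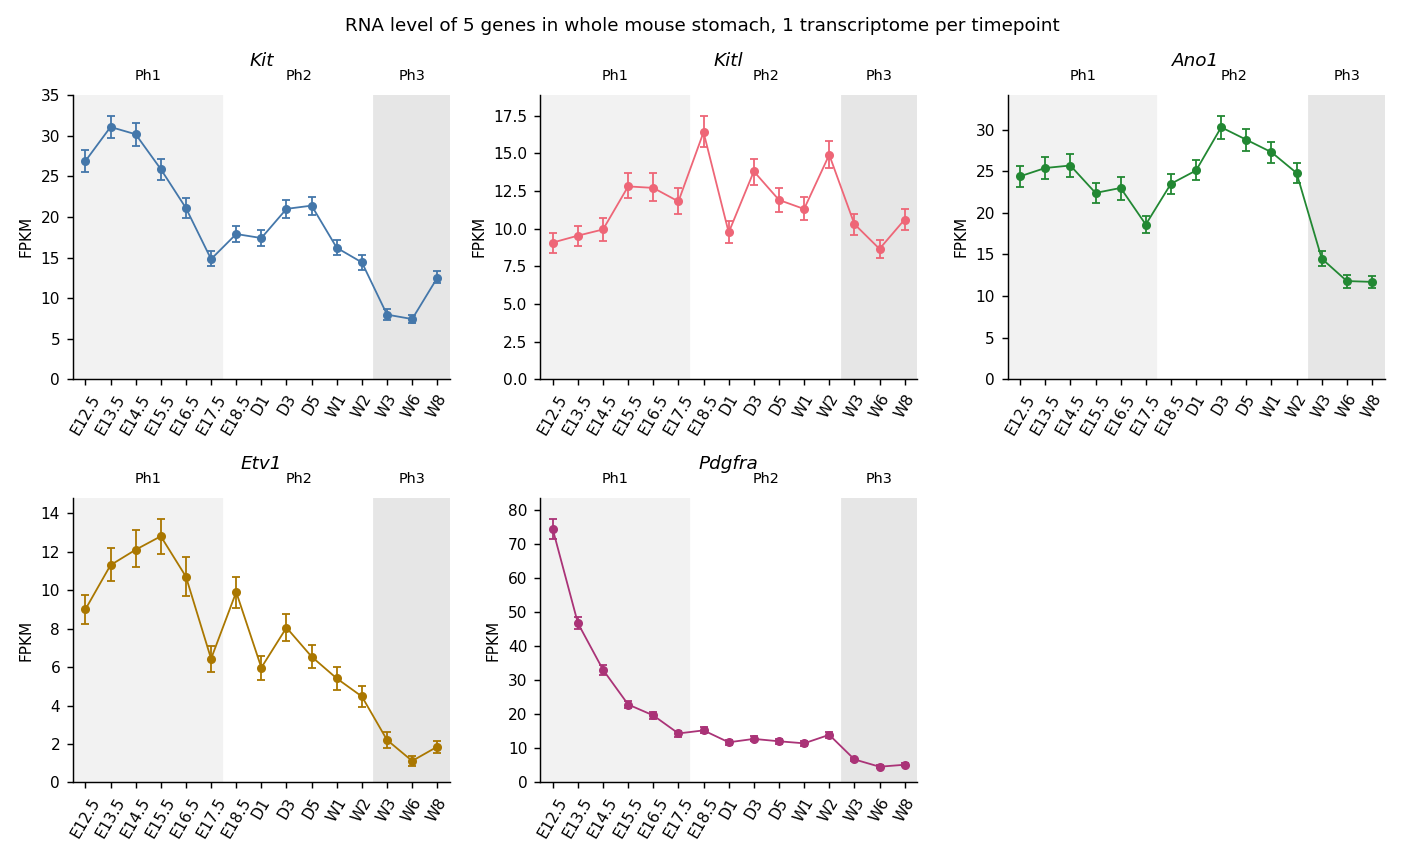
FPKM of each gene (vertical axis, from 0) at 15 timepoints (horizontal axis, not to time scale), with the deposited lower and upper confidence bounds as bars and the 3 phases shaded. Kit runs from 31.1 at E13.5 to 7.41 at W6, Ano1 is highest at D3 (30.3), and Pdgfra is at 74.4 at E12.5 and at 6.78 or less from W3 on.

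Kit, the receptor, was at 26.9, 31.1, 30.2, 25.9, 21.1 and 14.8 FPKM from E12.5 to E17.5. It was at 17.9, 17.4, 21.0, 21.4, 16.2 and 14.4 FPKM from E18.5 to W2, and at 7.96, 7.41 and 12.52 FPKM at W3, W6 and W8. The highest values were thus those of E13.5 and E14.5, Ph1 and Ph2 overlapped, and Ph3 did not overlap with Ph2. After scaling they overlapped, with Ph3 at 10.4 to 18.7 and Ph2 at 15.0 to 20.5. The deposited mean was 25.0 ± 6.10 (SD, n = 6) in Ph1, 18.0 ± 2.72 (n = 6) in Ph2 and 9.30 ± 2.80 (n = 3) in Ph3. The log2 difference from Ph2 to Ph3 was -0.91 (SE 0.21, adjusted p = 0.00275), a 1.88-fold lower level on the log2(FPKM + 1) scale. After median-ratio scaling it was -0.36 (SE 0.19) and no longer called (adjusted p = 0.154), so Kit was lower in Ph3 as deposited and not distinguishable from Ph2 once the middle gene was held level. Without W6 or without W3 the call was also lost, at -0.78 and -0.82 (adjusted p = 0.0242 and 0.0138).

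From Ph1 to Ph2 the log2 difference of Kit was -0.42 (SE 0.18, adjusted p = 0.0470) and after scaling -0.14 (adjusted p = 0.453), neither called. As deposited, the exact permutation test of the 6 against 6 timepoints gave p = 0.0346, where the smallest possible p is 0.00216. Without E17.5, the lowest Ph1 value, the difference was -0.56 and called (adjusted p = 0.00412), and without E13.5 it was -0.35 (adjusted p = 0.107). Between W6 and W8 Kit was higher by 0.76 on the log2 scale, and the bounds of these transcriptomes did not overlap. In the same step the median of 12006 symbols moved by 0.14.

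Kitl, the ligand, was at 9.07, 9.53, 9.94, 12.8, 12.7 and 11.8 FPKM from E12.5 to E17.5. It was at 16.4, 9.74, 13.8, 11.9, 11.3 and 14.9 FPKM from E18.5 to W2, and at 10.3, 8.65 and 10.6 FPKM at W3, W6 and W8. Its highest value was only 1.90-fold above its lowest, the narrowest range of the 5 genes as deposited, and all 3 phases overlapped. After median-ratio scaling the range of Kitl was 2.20-fold and that of Ano1, then the narrowest, 1.83-fold. The mean was 11.0 ± 1.67 in Ph1, 13.0 ± 2.47 in Ph2 and 9.85 ± 1.05 in Ph3. The log2 differences were 0.22 (SE 0.13, adjusted p = 0.145) and -0.35 (SE 0.16, adjusted p = 0.0626), and the exact permutation tests gave p = 0.136 and 0.0714. After median-ratio scaling Kitl rose from Ph1 to Ph2 by 0.48 (SE 0.12, adjusted p = 0.00513), and the difference from Ph2 to Ph3 turned to 0.20 (adjusted p = 0.305). Within Ph2 E18.5 was the highest and D1, the timepoint with the high albumin, the lowest.

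Ano1, the pacemaker channel, was at 24.4, 25.4, 25.7, 22.4, 23.0 and 18.6 FPKM from E12.5 to E17.5. It was at 23.5, 25.1, 30.3, 28.8, 27.3 and 24.8 FPKM from E18.5 to W2, and at 14.51, 11.8 and 11.7 FPKM at W3, W6 and W8. Ph1 and Ph2 overlapped, and all 3 Ph3 values lay below all 12 earlier ones as deposited. After scaling Ph3 lay between 17.4 and 20.4, below Ph2 but level with the range of Ph1, 16.2 to 20.2. The deposited mean was 23.2 ± 2.62 in Ph1, 26.6 ± 2.60 in Ph2 and 12.6 ± 1.61 in Ph3. From Ph2 to Ph3 Ano1 fell by 1.02 on the log2 scale (SE 0.12, adjusted p = 7.07e-05), which is 2.03-fold, and after scaling it fell by 0.45 (SE 0.11, adjusted p = 0.00426). It was called lower in Ph3 without each of the 15 timepoints in turn, with adjusted p between 3.71e-05 and 0.00111. From Ph1 to Ph2 the difference was 0.19 (SE 0.10, adjusted p = 0.0995), and it passed the threshold after median-ratio scaling, at 0.47 (SE 0.09, adjusted p = 0.000678), and under quantile normalization, at 0.38 (adjusted p = 0.00320).

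Etv1, the transcription factor, was at 9.00, 11.3, 12.1, 12.8, 10.7 and 6.43 FPKM from E12.5 to E17.5. It was at 9.90, 5.97, 8.05, 6.54, 5.41 and 4.47 FPKM from E18.5 to W2, and at 2.21, 1.12 and 1.86 FPKM at W3, W6 and W8. The level at E15.5 was 11.5-fold that at W6, Ph1 and Ph2 overlapped, and all Ph3 values were the lowest of the series. The mean was 10.4 ± 2.34 in Ph1, 6.72 ± 1.96 in Ph2 and 1.73 ± 0.559 in Ph3. Etv1 fell by 1.49 from Ph2 to Ph3 on the log2 scale (SE 0.23, adjusted p = 0.000213), and by 1.09 after scaling (adjusted p = 0.000650). With 5 in place of 1 added to FPKM the difference was -0.79, against -0.84 for Ano1. The call held without each timepoint in turn (adjusted p between 0.000114 and 0.00298). From Ph1 to Ph2 the difference was -0.57 (SE 0.18, adjusted p = 0.0149), with p = 0.0238 in the exact permutation test, and after scaling it was -0.31 (adjusted p = 0.105). As deposited, without E17.5 it was -0.69 (adjusted p = 0.00293) and without E18.5 -0.68 (adjusted p = 0.00461), and both were called. If the deposited bounds are Poisson, 75 fragments stood behind the W6 value of Etv1 and 750 behind that at E15.5, while the other 4 genes had between 538 and 2534 fragments at every timepoint.

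Pdgfra, the receptor of the neighbouring cells, was at 74.4, 46.8, 33.1, 22.9, 19.7 and 14.4 FPKM from E12.5 to E17.5. It was at 15.3, 11.8, 12.8, 12.1, 11.5 and 14.0 FPKM from E18.5 to W2, and at 6.78, 4.63 and 5.21 FPKM at W3, W6 and W8. Each fetal timepoint up to E17.5 was lower than the one before with bounds apart. Within Ph2 the bounds were apart from E18.5 to D1 (a log2 ratio of -0.37) and from W1 to W2 (0.28), and Ph3 lay below Ph2 without overlap. In rank among all tested symbols Pdgfra went from the 92.4th percentile at E12.5 to the 52.0th at W8. The mean was 35.2 ± 22.4 in Ph1, 12.9 ± 1.45 in Ph2 and 5.54 ± 1.11 in Ph3. From Ph1 to Ph2 Pdgfra fell by 1.17 (SE 0.30, adjusted p = 0.00353), and the exact permutation test gave p = 0.00433. After scaling the difference was -0.89 and not called (adjusted p = 0.0146). As deposited, the call was also lost without E13.5 (-1.05, adjusted p = 0.0101) and with E18.5 placed in Ph1 (-1.09, adjusted p = 0.0117). From Ph2 to Ph3 the difference was -1.10 (SE 0.36, adjusted p = 0.0189), and after scaling it was -0.57 (adjusted p = 0.191). The test takes 1 spread over all phases. Of the 15 fits without a timepoint, 2 called the deposited difference, those without E12.5 (adjusted p = 0.00369) and without E17.5 (0.00823), and the highest adjusted p was 0.0802, without W6. As deposited, the exact permutation test of Ph3 against Ph2 gave p = 0.0238 for all of Kit, Ano1, Etv1 and Pdgfra. This is the smallest p that 3 against 6 timepoints allow. How many of all symbols reached it was not counted, and the phases were drawn from these same transcriptomes.

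**Figure D2:**
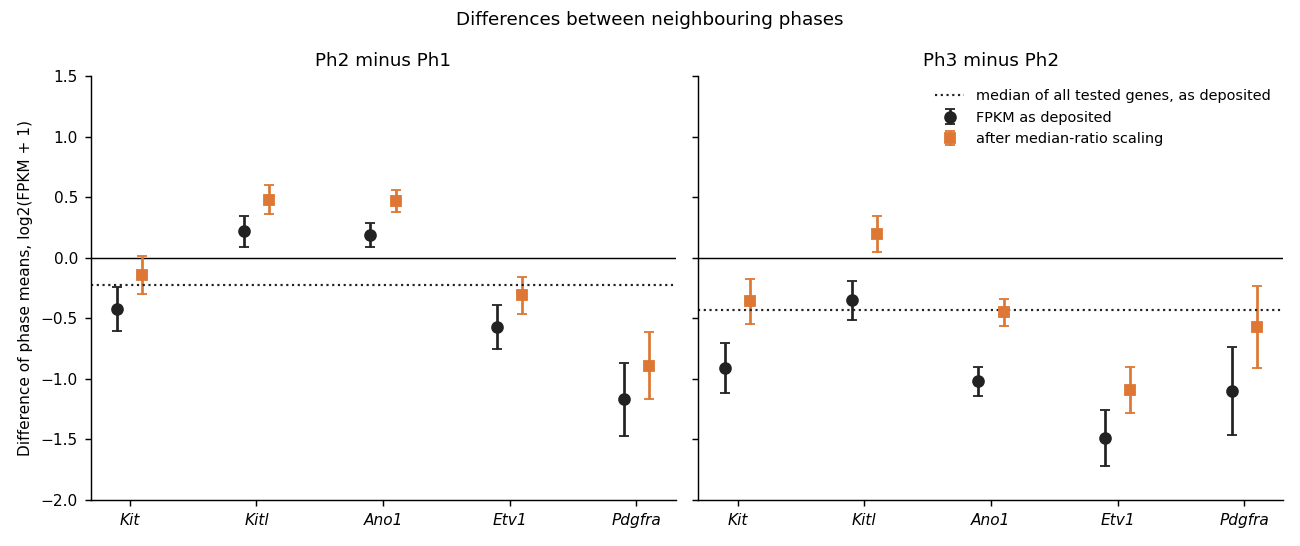
Difference of phase means on the log2(FPKM + 1) scale (vertical axis) for each gene, with SE bars, from FPKM as deposited (circles) and after median-ratio scaling (squares). The dotted line is the median of all tested symbols as deposited, -0.22 and -0.43. Etv1 lies lowest from Ph2 to Ph3 in both, at -1.49 and -1.09, and Kitl is the gene whose direction turns, from -0.35 to 0.20.

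In a whole organ, fewer cells of a type and less RNA per cell cannot be told apart, which holds for every value here. A ratio of 2 genes within a transcriptome does not depend on the scaling, and is given as a description with no test. Kit was 3.26 times Kitl at E13.5, 1.25 times at E17.5 and 1.09 times at E18.5. Between D1 and W1 the ratio was between 1.43 and 1.80, and it was below 1 at W2, W3 and W6 (0.968, 0.773 and 0.857) and 1.18 at W8. Receptor RNA was thus in excess of ligand RNA, per length, at 12 of the 15 timepoints.

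The channel and the receptor changed places before birth. Ano1 was between 0.818 and 0.907 times Kit from E12.5 to E15.5, 1.09 times at E16.5, and between 1.25 and 1.82 times at every timepoint from E17.5 to W6. At W8, where Kit was higher again and Ano1 was not, the ratio was 0.933. Etv1 was between 0.334 and 0.506 times Kit in Ph1, highest at E18.5 (0.553), and 0.278, 0.150 and 0.148 times Kit at W3, W6 and W8. The 3 Ph3 ratios of Etv1 to Kit lay below all 12 earlier ones. Pdgfra was 2.76 times Kit at E12.5 and 1.10 times at E14.5, and below 1 from E15.5 on, with the lowest ratio at W8 (0.416).

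**Figure D3:**
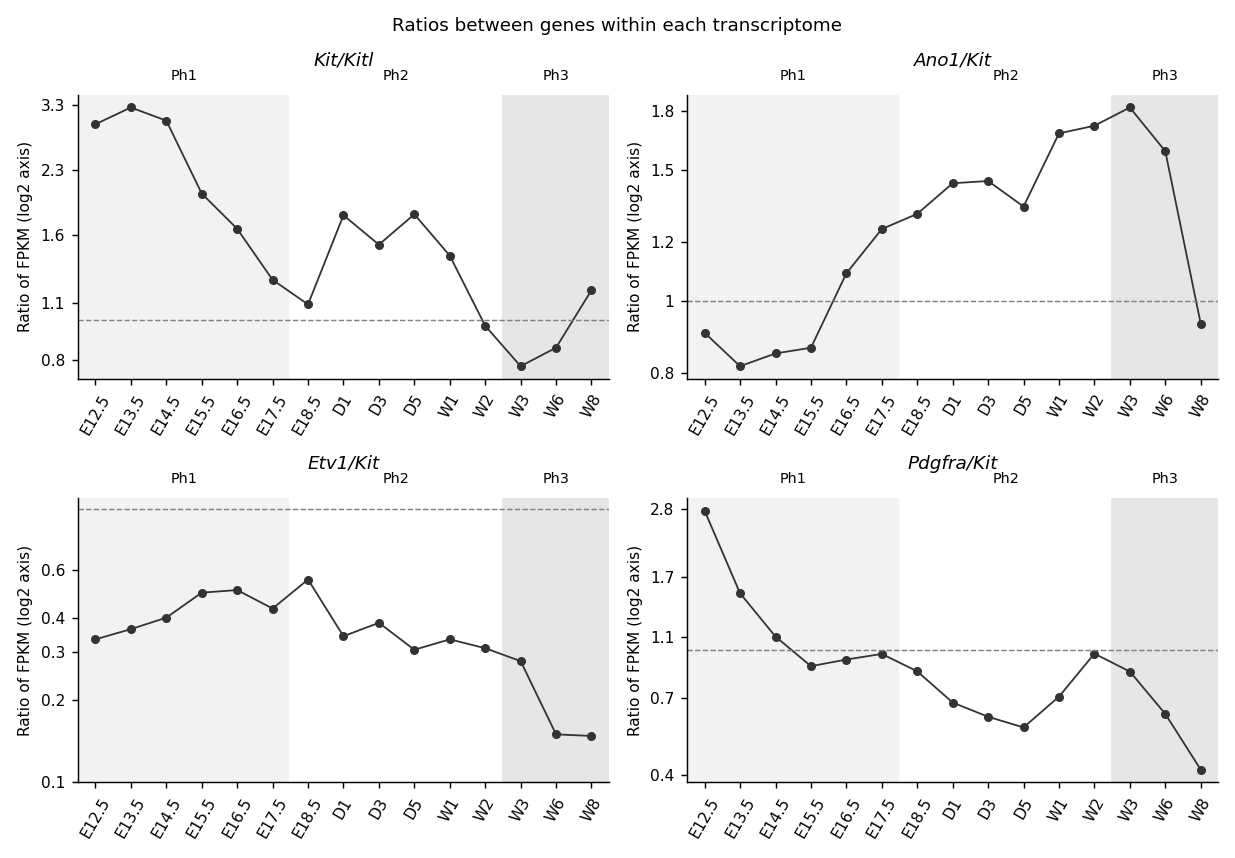
Ratio of FPKM values of 2 genes in the same transcriptome (vertical axis, log2) at each timepoint, with a dashed line at 1. Kit exceeds Kitl until W1, Ano1 exceeds Kit from E16.5 to W6, and Etv1 is at 0.148 times Kit at W8.

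Against smooth muscle, the tissue that ICCs pace, all 5 genes were highest at E12.5, where the muscle sum was lowest. Per 1000 FPKM of 10 summed smooth muscle genes, Kit was at 19.2 FPKM at E12.5 and 2.42 at E17.5, between 1.94 and 3.15 in Ph2, and at 0.986, 2.59 and 5.63 at W3, W6 and W8. On the same scale Pdgfra was at 53.2, Ano1 at 17.4, Kitl at 6.48 and Etv1 at 6.43 at E12.5. The sum of the smooth muscle genes itself was 1400 FPKM at E12.5, 11049 at D5, 8079 at W3 and 2225 at W8. The spread of the Ph3 ratios thus came with a muscle share that differed 3.63-fold between W3 and W8.

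Of 10 further genes used as ICC markers, 2 were called lower and 0 higher from Ph1 to Ph2, against 35.1% and 13.2% of all symbols. Their median difference was -0.17 against -0.22 over all symbols. From Ph2 to Ph3, 5 were called lower, where 37.4% of all symbols were, and 0 higher, with a median of -0.61 against -0.43. Thbs4 and Slc12a2 were at differences of 0.29 and 0.31, not called. Gja1, a gap junction protein, fell by 1.70 (adjusted p = 0.00228), Elovl6, a fatty acid elongase, by 0.93 (adjusted p = 0.00654) and Gpr20, an orphan receptor, by 0.84 (adjusted p = 0.00177). Cacna1h, a T-type calcium channel, fell by 0.88 from Ph1 to Ph2 (adjusted p = 0.00189), as did Lrig1, a membrane protein that restrains receptor kinases, by 0.43 (adjusted p = 0.00832). After scaling, 1 of the 10 was called lower in Ph2 (Cacna1h) and 0 in Ph3, against 18.4% and 10.4% of all symbols. Gja1, Lrig1 and Slc12a2 are also used by epithelium.

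Downstream of KIT, 18 adaptors, kinases and phosphatases were tested. In Ph2, 4 were called higher and 9 lower, against 13.2% and 35.1% of all symbols. In Ph3, 0 were higher and 7 lower, against 3.41% and 37.4%, so the share called lower was near that of all symbols. The medians were -0.26 and -0.37 against -0.22 and -0.43 over all symbols. Stat5a, a transcription factor activated by KIT, rose by 0.93 from Ph1 to Ph2 (adjusted p = 0.000157) and Ptpn6, a phosphatase of blood cells that restrains KIT, by 0.86 (adjusted p = 0.000236). Cbl, the ligase that marks KIT for breakdown, fell by 0.77 (adjusted p = 0.000886). From Ph2 to Ph3 the adaptor Gab2 fell by 1.01 (adjusted p = 0.000175), the adaptor Shc1 by 0.85 (adjusted p = 0.000296) and Stat5b by 0.75 (adjusted p = 0.000293). After scaling, 5 were higher and 2 lower in Ph2, against 20.4% and 18.4% of all symbols. In Ph3 4 were then higher and 1 lower, against 14.9% and 10.4%.

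Of 9 genes that are relatives of Etv1 or feedback genes of the ERK pathway, 5 were called lower in Ph2 and 5 in Ph3, against 35.1% and 37.4% of all symbols, and 0 higher in either. Etv4, a close relative of Etv1, fell by 0.96 from Ph1 to Ph2 (adjusted p = 0.00155), the phosphatase Dusp4 by 1.12 (adjusted p = 0.000212) and the ERK inhibitor Spred1 by 0.94 (adjusted p = 0.000322). From Ph2 to Ph3 the ERK inhibitors Spry1, Spry2 and Spred1 fell by 1.74, 1.07 and 1.03 (adjusted p = 5.27e-05, 0.000137 and 0.000874). Spry1 was at a mean of 19.8 FPKM in Ph2 and 5.45 in Ph3. The medians of the list were -0.44 and -0.71 against -0.22 and -0.43 over all symbols. After scaling 4 genes were lower in Ph2 and 3 in Ph3, against 18.4% and 10.4% of all symbols. In Ph3 2 were then higher, against 14.9%.

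In the PDGF family the other receptor moved with Pdgfra. Pdgfrb, the receptor of pericytes and mesenchyme, fell by 1.16 from Ph1 to Ph2 (adjusted p = 0.000314) and by 1.31 from Ph2 to Ph3 (adjusted p = 0.000722). Pdgfc, a ligand of PDGFRA, fell by 0.94 and 1.10 (adjusted p = 0.000271 and 0.000509). Csf1r, the macrophage receptor of the same kinase family, rose by 0.59 and then fell by 1.15 (adjusted p = 0.00821 and 0.000556). In all, 2 of 6 tested genes were higher and 2 lower in Ph2, against 13.2% and 35.1% of all symbols. In Ph3 5 were lower, against 37.4%, and Flt3 never reached 1 FPKM. After scaling, 4 were higher and 2 lower in Ph2, against 20.4% and 18.4% of all symbols, and 1 was lower in Ph3, against 10.4%.

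Of 9 genes of PDGFRA+ cells and fibroblasts, 2 were called lower in Ph2 and 8 in Ph3, against 35.1% and 37.4% of all symbols. The list had 0 called higher, with medians of 0.24 and -1.42 against -0.22 and -0.43 over all symbols. Foxl1, the factor of subepithelial PDGFRA+ cells, fell by 1.11 in Ph2 (adjusted p = 4.83e-05). P2ry1, the purine receptor of PDGFRA+ interstitial cells of the muscle layer, fell by 0.59 (adjusted p = 0.00253). The collagens Col1a1 and Col3a1 fell by 2.82 and 2.53 from Ph2 to Ph3 (adjusted p = 0.000598 and 0.000300) and Lum, a matrix proteoglycan, fell from a mean of 80.8 to 22.0 FPKM (adjusted p = 0.00109). The mean of Col1a1 was 865 FPKM in Ph1 and 973 in Ph2, while that of Pdgfra was 35.2 and 12.9. After scaling, 1 of the 9 was higher and 1 lower in Ph2, against 20.4% and 18.4% of all symbols. In Ph3 5 were then lower, against 10.4%.

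**Figure D4:**
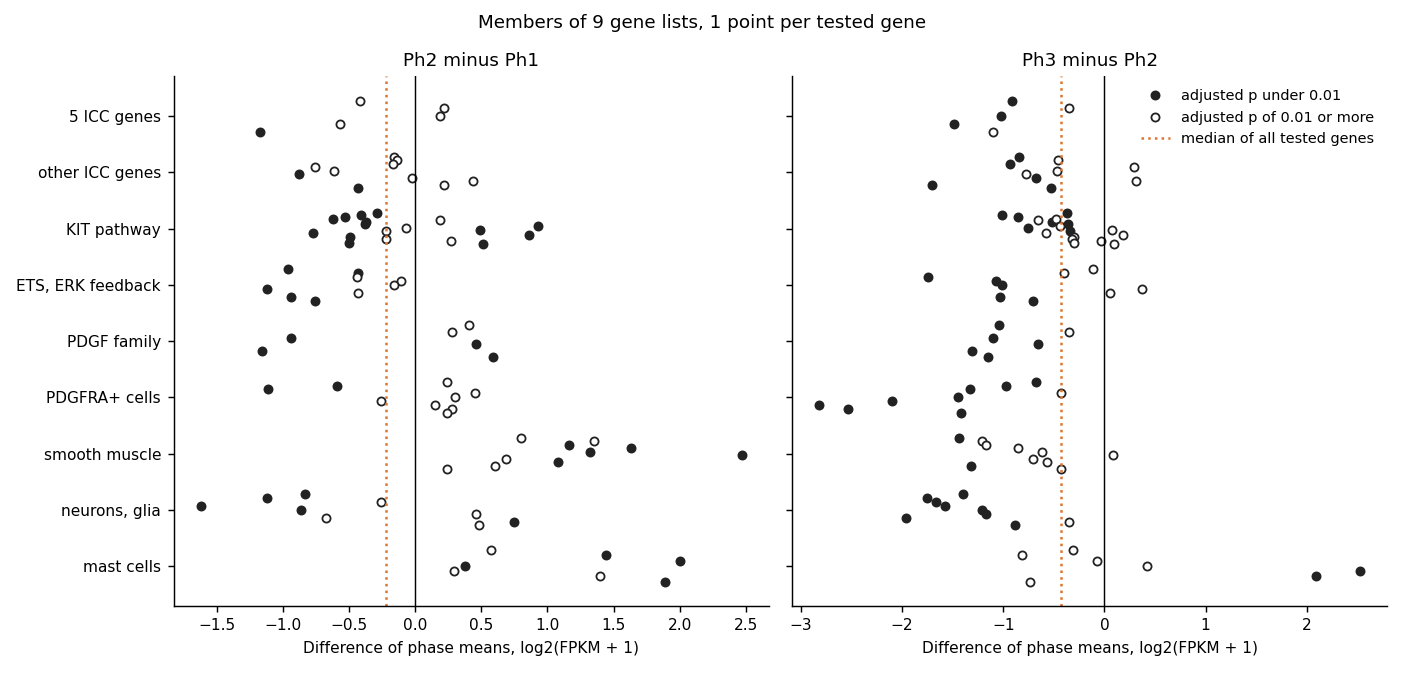
Difference of phase means on the log2(FPKM + 1) scale (horizontal axis) for each tested gene of 9 lists (rows), filled where the adjusted p was under 0.01, with the median of all tested symbols dotted. From Ph2 to Ph3 most points of each of the 9 lists lie left of 0, as does the median of all tested symbols (-0.43). Mcpt1 and Mcpt2 of the mast cell list lie at 2.53 and 2.09.

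As deposited, smooth muscle, neuron and glia, endothelial and epithelial genes moved in different directions in Ph2. In Ph3 more genes of each of these lists were called lower than higher. Over all symbols 13.2% were called higher and 35.1% lower in Ph2, and 3.41% higher and 37.4% lower in Ph3. After scaling these shares were 20.4% and 18.4% in Ph2, and 14.9% and 10.4% in Ph3. Of 10 smooth muscle genes, 5 were called higher in Ph2, among them Des by 2.47 (adjusted p = 0.000731), Tagln by 1.63 (adjusted p = 0.00564) and Cnn1 by 1.32 (adjusted p = 0.00511), and 2 were called lower in Ph3 (Acta2 by 1.44 and Mylk by 1.32). After scaling, 7 were higher in Ph2 and 0 lower in Ph3. Of 9 tested neuron and glia genes, 4 were lower and 1 higher in Ph2, and 8 were lower in Ph3. Sox10, a glial factor, fell by 1.96 in Ph3 (adjusted p = 0.000146). After scaling, 3 were higher and 2 lower in Ph2, and 6 were lower in Ph3. Of 6 endothelial genes, whose cells also make KIT ligand, 2 were lower in Ph2 and 5 in Ph3 (1 and 3 after scaling), and Cldn5, a junction protein, fell by 2.11 in Ph3 (adjusted p = 8.05e-05). Of 6 epithelial genes, 2 were higher and 1 lower in Ph2 and 1 was lower in Ph3, and after scaling 4 were higher and 0 lower in Ph2 and 1 was lower in Ph3. Krt8, an epithelial keratin, rose by 1.39 (adjusted p = 0.00367) in Ph2, and Cldn7, a tight junction protein, fell by 1.61 and 2.34 in the 2 steps (adjusted p = 0.00345 and 0.00147), the first of which was not called after scaling.

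The other cells that carry KIT did not share 1 course. Their counts stand against 13.2% of all symbols higher and 35.1% lower in Ph2, and 3.41% and 37.4% in Ph3. After scaling these shares were 20.4% and 18.4% in Ph2, and 14.9% and 10.4% in Ph3. The summed FPKM of 10 mast cell genes was between 3.96 and 13.6 in Ph1, between 18.9 and 39.8 in Ph2 and at 89.0, 59.9 and 19.4 at W3, W6 and W8. Of the 7 tested, 4 rose in Ph2, with the tryptase Tpsb2 up from a mean of 0.991 to 7.01 FPKM (adjusted p = 0.000260) and the chymase Mcpt4 up by 1.89 on the log2 scale (adjusted p = 0.000470), and the mucosal proteases Mcpt1 and Mcpt2 rose in Ph3. The sum was highest at W3 and W6 through Mcpt1 and Mcpt2, while Cpa3 and Cma1 were highest at D3, Tpsb2 at D1, Mcpt4 at D5 and Tpsab1 at W8. Their part in the Kit level was not tested. Ms4a2 and Fcer1a, chains of the IgE receptor, and Mrgprb1 stayed below 1 FPKM at all timepoints. The sum of 6 blood progenitor genes was between 13.0 and 19.1 in Ph1, between 2.50 and 13.9 in Ph2 and between 2.38 and 3.96 in Ph3. Within Ph1 this sum was 14.3 at E13.5, where Kit was highest (31.1), and 16.7 at E17.5, where Kit was lowest (14.8). Of the 5 tested, 2 were called lower in Ph2 and 0 in Ph3, and after scaling 0 in either. Most of it was Alas2, a red cell enzyme, at a mean of 11.2 FPKM in Ph1, while Gata1 was at 0.357 and Gata2 at 1.48, and its part in the early Kit level was not tested. Of the melanocyte genes, Mlana was at 0 at all 15 timepoints, and Tyr, Tyrp1 and Dct reached at most 0.0971, 0.0224 and 0.225 FPKM. Mitf reached 2.97 FPKM at W8 and Pmel 1.92 FPKM at W2, and 0 of these 2 tested genes were called as deposited. After scaling 1 was called higher in Ph2 and 1 in Ph3.

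**Figure D5:**
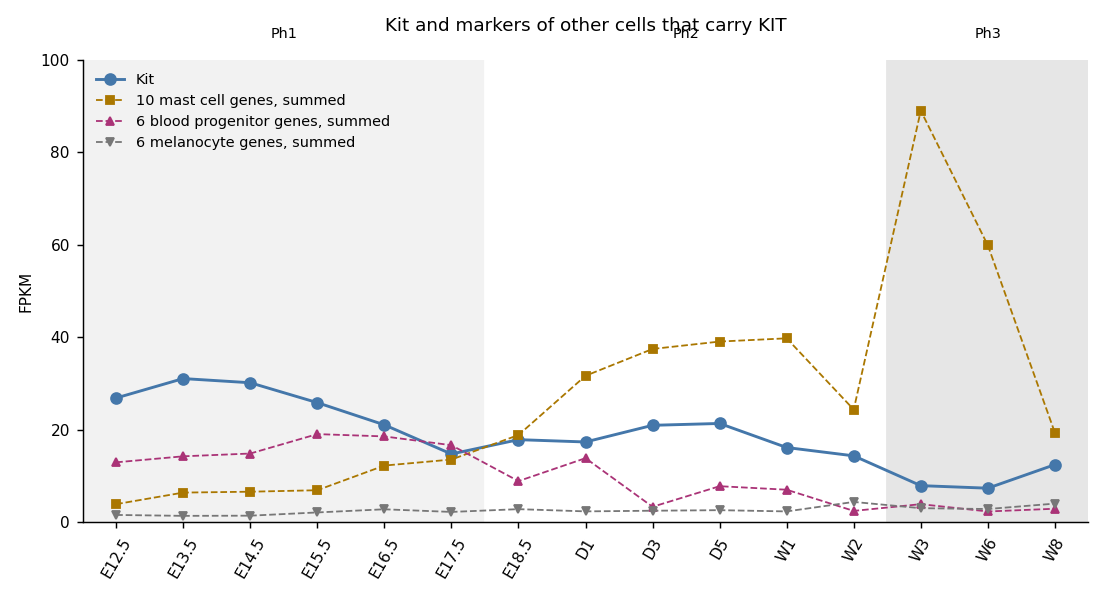
FPKM of Kit (circles) and the summed FPKM of marker genes of 3 other cell types that carry KIT (vertical axis, from 0) at 15 timepoints. The mast cell sum is highest at W3 (89.0), where Kit is at 7.96, and the melanocyte sum stays at or below 4.44.

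Over all 15 timepoints the courses of Kit and Etv1 were the most alike among the 5 genes, with Pearson r = 0.92 of log2(FPKM + 1), followed by Kit and Pdgfra (0.86) and Etv1 and Pdgfra (0.81). Ano1 had r = 0.79 with Etv1 and 0.76 with Kit. Within phases this order did not hold: Kit and Ano1 were at 0.95 in Ph1 and 0.67 in Ph2 (n = 6 each), Kit and Etv1 at 0.81 and 0.63, and Kit and Pdgfra at 0.75 and -0.19. Kitl had lower r with the others over all timepoints, 0.37 to Ano1, 0.32 to Etv1, 0.10 to Kit and -0.09 to Pdgfra. The 15 points share age and the composition of their libraries, and after median-ratio scaling r was 0.68 for Kit and Etv1, 0.64 for Kit and Pdgfra, 0.17 for Ano1 and Kit and -0.58 for Kit and Kitl. For Kit, 967 of the other compared symbols followed its course more closely than Etv1 did, so the likeness is not particular to these genes.

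Of 12440 symbols with a maximal FPKM of at least 5, those closest to Kit were Whrn, Mks1, Med12, Rai1 and Chd6 (r of 0.97 to 0.98), and those closest to Etv1 were Fam172a, Extl2, Gng2, Armcx3 and Glce (r = 0.99). Closest to Pdgfra were Tgfbr1, a receptor of TGF-beta, Akna, Ets1, an ETS factor, Ado and Klhl4 (r = 0.98). Closest to Ano1 were Cry2, a clock gene, Plin2, Tceal3, Zfp651 and Nsg2 (r of 0.94 to 0.96). Kitl had less close companions, Pla2g4a, Zmpste24, Dmd, Tbc1d8b and Erap1, with r of 0.87 to 0.89. None of these 25 symbols was on the list of other ICC genes.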

How the data were processed

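RNA was sequenced from whole stomachs at 15 timepoints. The deposited tables give FPKM for each gene entry, calculated by the authors, and its confidence bounds. Their methods describe quality filtering with FastQC, mapping to GRCm38.p2 with HISAT2 and quantification with StringTie. The submitters' processing notes name Bowtie 0.12.2, and the tables have the layout of Cufflinks, so the sources differ. FPKM was summed over the entries of a symbol. Symbols that reached 1 FPKM in any transcriptome entered as log2(FPKM + 1), which understates changes of low genes.

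Phases were compared with limma 3.58.1 in R 4.3.3, with phase as the only term and Benjamini-Hochberg adjustment over 16902 symbols, at an adjusted p under 0.01. The function was tested on simulated data with independent noise and no change with age within a phase. That test therefore says nothing about timepoints standing in as replicates. Exact two-sided permutation tests compared 6 against 6 (924 splits) and 3 against 6 timepoints (84 splits). Python 3.11.15 was used for ratios and correlations, with pandas 2.3.3, SciPy 1.17.1 and NumPy 2.4.6. The 5 genes and all gene lists were chosen with earlier results of these data known. From each list the text names at most the 3 largest changes per comparison with an adjusted p under 0.01, and for each of the 5 genes the 5 symbols with the highest Pearson r. Other list genes named as values, among them Alb, Slc12a2, Flt3 and the markers at or near 0, were chosen after their values were seen.

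Read totals are not in the tables. Relative depth, read from entries with 1 fragment if the bounds are Poisson, was between 0.702 (E16.5) and 1.17 (W6) of that at E12.5, and bounds cover counting error only. Alternatives were other pseudocounts, limits, normalizations, phase borders, the study's one-way test, another limma prior and leaving out each timepoint.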

Additional observations from a re-analysis of the deposited data

How the results depend on the processing

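With 27 alternatives per gene and step, the falls of Ano1 and Etv1 from Ph2 to Ph3 were called in each. Kit lost its Ph3 call under quantile normalization (-0.42), median-ratio scaling (-0.36), a fixed sum without the 10 highest symbols (-0.84) and without W3 or W6. The difference of Kitl from Ph2 to Ph3 turned to 0.20 under median-ratio scaling and 0.13 under quantile normalization, neither called. Of the 5 genes, 0 were called higher in Ph2 as deposited, 2 under median-ratio scaling and 1 under quantile normalization. The number called lower in Ph2 (1) was 0 under median-ratio scaling, 2 with a fixed sum, 3 with E17.5 placed in Ph2 and 0 to 3 with a timepoint left out. With E18.5 placed in Ph1 it stayed at 1, but the gene was Etv1 (-0.67, adjusted p = 0.00369) in place of Pdgfra (-1.09, adjusted p = 0.0117). The number called lower in Ph3 (3) was 5 with a fixed sum and 2 to 4 with a timepoint left out.

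Over all symbols, median-ratio scaling moved the calls in Ph2 from 5935 lower and 2229 higher to 3109 and 3447. In Ph3 it moved them from 6328 lower and 577 higher to 1751 and 2515, and quantile normalization to 1301 and 1727. With a fixed sum 250 were higher in Ph3. Leaving out a timepoint gave 2842 to 6870 lower and 306 to 740 higher in Ph3, the lowest of each without W6. The cause was not tested. Of the 5 symbols closest to a gene, median-ratio scaling kept 3 for Kit, 0 for Kitl, 1 for Ano1, 2 for Etv1 and 2 for Pdgfra, and Spearman's rho kept 0 for Kit, 4 for Kitl, 1 for Ano1, 0 for Etv1 and 0 for Pdgfra. Ratios between genes did not change with the choice of entry, since each gene had 1. No paired analysis was possible because each transcriptome came from a different age. With 1 transcriptome per timepoint, differences between animals of an age could not be measured.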
